A study of Sus scrofa with 12 samples.

Results

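The proteasome genes of early porcine embryos were examined across 12 SMART-seq libraries. Members were the rows of the count table whose symbol starts with PSM, then a letter from A to G and a digit. The rule found 46 genes among the 29329 of the table, and 45 of them were among the 17995 genes that passed the filter on low counts. The remaining member, PSMB11, the catalytic subunit of the thymus, had 2 counts in 1 library and none elsewhere. Of the 46 genes, 44 encode subunits, activators, the inhibitor or assembly chaperones of the proteasome. PSMC3IP, a meiotic recombination factor, and PSME3IP1, a binding partner of an activator, match by name only and are kept apart below. PSMB5, PSMB6, PSMG2 and PSMG4 were not analysed here, so PSMB7 is the only constitutive catalytic subunit described.

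The embryos were produced by in vitro fertilisation of pig (Sus scrofa) oocytes. Control libraries (con), whose treatment label is blank control, were compared with libraries of embryos injected with a short interfering RNA (siRNA) against CCNB2, the mitotic cyclin B2 (si). Titles give each treatment at 2c and 4c, which makes 4 groups of 3 libraries, and each library came from a pool of embryos. The stage in the title and in the tissue label were opposite in all 12 libraries, so the group names (con-2c, si-4c and so on) follow the titles only. The methods call the controls both normal embryos and an NC group, and whether they were injected was not clear. Nothing in the labels says that replicates came from separate fertilisations, so p-values measure the spread between these libraries, which may be technical.

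The siRNAs listed by the study for CCNB2 are shown because they define the si groups. Which of them was injected for these libraries is not given in the sources used here, and both are written in lower case in the order in which the study lists their bases, without a stated direction.
Si-CCNB2-2: gcuuauaccaguucccaaa
Si-CCNB2-1: gcagguccacuccaaguuu
CCNB2 itself was at 444 to 487 CPM (the count as a share of the library total, scaled by TMM) in con-2c and 429 to 510 CPM for con-4c, against 17.8 to 28.8 CPM for si-2c and 40.3 to 46.8 CPM for si-4c. The targeted mRNA was therefore low in every si library and separated the treatments as labelled.

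Library totals ranged from 27785233 to 39510908 counts. Of 12 listed oocyte and early embryo markers, 11 were in the table, and their summed level was 23335 to 28372 CPM for con-2c, 12284 to 12845 for con-4c, 11133 to 13648 for si-2c and 25963 to 28199 for si-4c. The 9 cumulus and granulosa markers in the table summed to 295 to 373 CPM for con-2c, 179 to 190 for con-4c, 174 to 201 for si-2c and 295 to 304 for si-4c, and the 6 sperm markers in the table summed to between 6.60 and 16.6 CPM in any library. BTG4 made up most of the oocyte sum, with a mean of 18571 CPM for con-2c and 7682 CPM for con-4c, while BMP15 was at 887 and 985 CPM. The cumulus sum was nearly all VCAN, at 168 to 367 CPM by library, and of the 6 cumulus markers tested VCAN alone passed between con-4c and con-2c. Among the sperm markers, AKAP3 and AKAP4 had no count in con-2c and si-4c. Their means were 0.550 and 0.349 CPM for con-4c and 0.221 and 0.648 CPM for si-2c. Both were called by edgeR as higher for con-4c and si-2c against con-2c, and lower for si-4c against con-4c and si-2c. ODF2 made up most of the sperm sum and passed in none of these comparisons. Its means were 8.42 CPM for con-2c, 11.4 for con-4c, 12.3 for si-2c and 10.3 for si-4c. SPACA1, with too few counts to be tested, had its highest mean in si-4c (0.175 CPM) and its lowest in si-2c (0.0325 CPM). Since CPM is a share of the library, a lower level of a gene cannot be told apart from more RNA of other genes. In pools of embryos, fewer cells of a type and less RNA per cell cannot be told apart either.

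The proteasome degrades proteins that carry chains of ubiquitin. Its 20S core is a barrel of stacked rings, in which alpha subunits (PSMA) form the gate and beta subunits (PSMB) hold the catalytic sites inside. The 19S regulatory particle caps the barrel, where ATPases (PSMC) unfold the substrate and non-ATPase subunits (PSMD) bind ubiquitin, remove it and hold the cap together. Other caps, the activators PSME1 to PSME4, open the gate without that machinery, PSMF1 restrains the core, and the chaperones PSMG1, PSMG3, PSMD5, PSMD9 and PSMD10 build core and cap and then leave. In cleaving embryos the proteasome removes maternal proteins while stored maternal mRNAs are cleared and the embryonic genome starts transcription.

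The members together took 0.488% ± 0.0201 (SD, n = 3) of the counts for con-2c, 0.472% ± 0.00768 for con-4c, 0.454% ± 0.00801 for si-2c and 0.464% ± 0.0122 for si-4c. These shares are of the unscaled library totals, and on that scale the sum of all members stayed between 0.445% and 0.508% in every library. With TMM scaling, as in the CPM values, sums were less steady. The 12 constitutive core subunits summed to a mean of 3424 CPM for con-2c, 2643 for con-4c, 2234 for si-2c and 3168 for si-4c. The 17 cap subunits summed to 1178, 1155, 1049 and 1154 CPM in the same order. Single members moved in opposite directions. PSMB2, a non-catalytic beta subunit that carried the most counts of any member, was at 1155, 1256 and 1089 CPM for con-2c, 1024, 1089 and 1058 CPM for con-4c, 932, 1034 and 827 CPM for si-2c, and 1065, 961 and 961 CPM for si-4c. Its con-2c libraries lay above those of every other group, but the lowest of them exceeded the highest con-4c library by less than this rounding shows. PSMA2, an alpha subunit, was at 633, 668 and 554 CPM for con-2c, 396, 480 and 472 CPM for con-4c, 354, 381 and 370 CPM for si-2c, and 676, 537 and 548 CPM for si-4c. PSMD12, a scaffold subunit of the 19S lid, was at 287, 326 and 292 CPM for con-2c, 309, 340 and 330 CPM for con-4c, 298, 289 and 295 CPM for si-2c, and 292, 282 and 294 CPM for si-4c. PSMD12 passed the test in none of the 7 comparisons made, with fold changes between -0.17 and 0.11 on the log2 scale. CPM is not divided by transcript length, so these levels are not compared between genes.

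**Figure D1:**
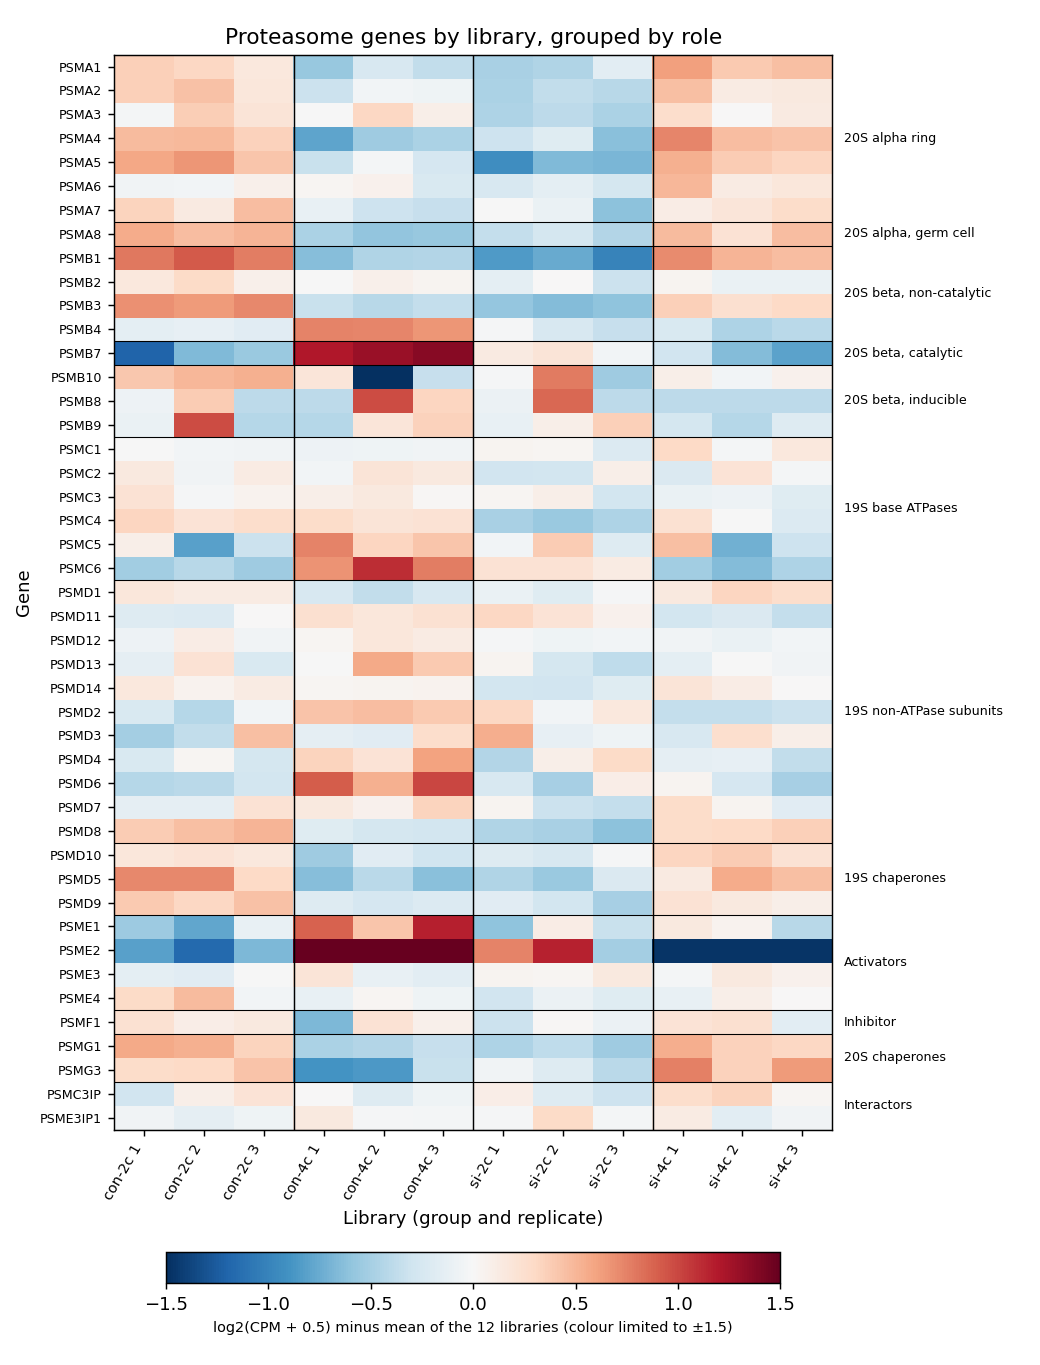
Level of the 45 tested proteasome genes in the 12 libraries, as log2(CPM + 0.5) minus the mean of the gene over the 12 libraries (colour scale, limited to ±1.5), with genes in rows ordered by role and libraries in columns grouped by title. PSMA1, PSMA4, PSMA5, PSMA8, PSMB1, PSMB3 and the chaperones PSMG1, PSMG3 and PSMD5 are red in con-2c and si-4c and blue in con-4c and si-2c, PSMB7, PSMC6, PSME1 and PSME2 are red in con-4c, and PSME2 is blue in si-4c, where it had no count.

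Con-4c was compared with con-2c to describe the step between the title stages in control embryos. Most core subunits were lower in con-4c and several cap subunits were higher. Among the 12 constitutive 20S subunits tested, 7 were lower in con-4c (PSMA1, PSMA2, PSMA4, PSMA5, PSMA7, PSMB1 and PSMB3) and 2 were higher (PSMB4 and PSMB7), at an edgeR adjusted p below 0.05. Among the 17 subunits of the 19S particle, 2 were lower (PSMD1 and PSMD8) and 6 were higher (PSMC5, PSMC6, PSMD2, PSMD4, PSMD6 and PSMD11). All 5 assembly chaperones were lower. On unscaled library totals, 5 of the 12 core subunits, 1 of the 17 cap subunits and 4 of the 5 chaperones were lower, and none of the genes named in this paragraph changed direction. Of 11 tested oocyte markers, 9 were lower in con-4c and none was higher, while of the cumulus markers only VCAN was lower. The part of these in the counts was not tested.

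Of the 45 members tested, 5 were called higher (adjusted p below 0.05 and at least 2-fold), where 14.4% of all genes tested were. A further 6 were called lower, which is 13.3% against 3.25% of all genes. At any fold, 10 members were higher (22.2% against 20.7% of all genes) and 16 were lower (35.6% against 15.1%). The con-4c libraries lay wholly above con-2c for 11 members (24.4% against 28.6% of all genes) and wholly below for 19 (42.2%, where 3602 of the 17995 genes did so). On library totals the balance at any fold turned, to 15 higher and 11 lower, and PSMA2, PSMA7, PSMD1, PSMD10 and PSME4 no longer passed. The median member differed by -0.05 on the log2 scale and the median gene by 0.11. With library totals in place of TMM scaling, the calls became 7 higher and 1 lower, and the median gene moved up by 0.27. Under both scalings 30 of the 45 members lay below the median gene.

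PSMB1, a beta subunit without catalytic activity of its own, had the largest fall in the core. It was at 235, 258 and 231 CPM for con-2c, 87.1, 99.6 and 99.9 CPM for con-4c, 75.2, 80.0 and 67.3 CPM for si-2c, and 222, 193 and 187 CPM for si-4c. Its 3 con-4c libraries lay far below the 3 con-2c libraries, a log2 fold change of -1.34 ± 0.09 (SE, edgeR adjusted p = 7.41e-09). The gene lies at chr1:23827-40033 (RefSeq, Sscrofa11.1). PSMB3, another structural beta subunit, was at 55.7, 54.0 and 57.1 CPM for con-2c, 27.3, 25.7 and 26.8 CPM for con-4c, 22.9, 21.7 and 22.6 CPM for si-2c, and 44.3, 40.7 and 42.7 CPM for si-4c. Its groups did not overlap between con-2c and con-4c, and it fell by 1.06 ± 0.08 (adjusted p = 3.39e-08).

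In the alpha ring, PSMA4 was at 301, 302 and 275 CPM for con-2c, 125, 149 and 155 CPM for con-4c, 175, 190 and 140 CPM for si-2c, and 359, 298 and 292 CPM for si-4c. The difference between con-4c and con-2c was -1.03 ± 0.12 on the log2 scale (edgeR adjusted p = 2.19e-06), and without con-4c replicate 1 it was -0.95, just short of 2-fold. PSMA5 was at 256, 272 and 228 CPM for con-2c, 135, 168 and 143 CPM for con-4c, 89.1, 108 and 106 CPM for si-2c, and 247, 223 and 214 CPM for si-4c. Con-4c lay below con-2c by 0.76 ± 0.10, and si-2c lay lower still, so that the 4 groups of PSMA5 formed the order con-2c, si-4c, con-4c and si-2c, of which con-2c and si-4c overlapped. PSMA8, the alpha subunit of germ cells that takes the place of PSMA7 in the testis, was present at 88.0, 82.4 and 84.8 CPM for con-2c, 42.6, 39.2 and 39.9 CPM for con-4c, 46.5, 49.5 and 43.6 CPM for si-2c, and 82.8, 69.4 and 82.4 CPM for si-4c. PSMA8 differed by -1.07 ± 0.09 between con-4c and con-2c (edgeR adjusted p = 7.81e-08). PSMA7 itself differed by -0.57 ± 0.13 (edgeR adjusted p = 0.00224), and by -0.30 on library totals, where it did not pass (adjusted p = 0.102). PSMA3 and PSMA6 completed the ring with differences of -0.05 and -0.03 that did not pass the test.

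PSMB7, which carries the trypsin-like catalytic site, went the other way. It was at 15.6, 22.9 and 24.6 CPM for con-2c, 84.6, 90.2 and 94.5 CPM for con-4c, 39.9, 41.9 and 35.6 CPM for si-2c, and 29.8, 23.0 and 20.7 CPM for si-4c. The lowest con-4c library was above every library of the other groups. Con-4c exceeded con-2c by 2.09 ± 0.16 on the log2 scale, 4.27-fold (edgeR adjusted p = 1.61e-08). PSMB7 lies at chr1:265172257-265235389 (RefSeq, Sscrofa11.1). PSMB4, a structural beta subunit, was at 22.5, 22.9 and 22.3 CPM for con-2c, 42.2, 41.8 and 39.9 CPM for con-4c, 24.6, 21.1 and 19.6 CPM for si-2c, and 21.3, 18.0 and 18.7 CPM for si-4c. It stood out in con-4c alone, where it was 1.83-fold above con-2c (log2 fold change 0.87 ± 0.11, adjusted p = 6.12e-06). Within the beta ring, PSMB1 and PSMB3 on the one hand and PSMB4 and PSMB7 on the other therefore moved in opposite directions between the same libraries.

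In the cap, PSMC6, 1 of the 6 ATPases, was at 4.26, 4.61 and 4.21 CPM for con-2c, 10.3, 14.2 and 11 CPM for con-4c, 7.41, 7.45 and 6.93 CPM for si-2c, and 4.23, 3.85 and 4.45 CPM for si-4c. The con-4c and si-2c libraries were each above all con-2c and si-4c libraries, and con-4c exceeded con-2c by 1.44 ± 0.17 (edgeR adjusted p = 3.40e-06). PSMC5 rose by 0.89 ± 0.32 (adjusted p = 0.0360), and PSMC1, PSMC2, PSMC3 and PSMC4 differed by -0.03 to 0.03. PSMD6, a subunit of the 19S lid, was at 7.29, 7.40 and 8.18 CPM for con-2c, 19.2, 14.6 and 20.4 CPM for con-4c, 8.38, 6.91 and 10.7 CPM for si-2c, and 10.2, 8.27 and 6.93 CPM for si-4c. Its con-4c libraries were above all others, and the difference from con-2c was 1.25 ± 0.19 (adjusted p = 6.18e-05). PSMD2, the large scaffold of the base, rose by 0.66, PSMD4, a ubiquitin receptor, by 0.55 and PSMD11, a lid subunit, by 0.34. PSMD8, a lid subunit, fell by 0.69 and PSMD1, the other large scaffold, fell by 0.42, but on library totals PSMD1 was at -0.15 and did not pass (edgeR adjusted p = 0.233). The RefSeq gene bodies of PSMC5 and PSMD6 overlap FTSJ3 and ATXN7. Those of PSMA7, PSMC1, PSMC3IP, PSMD1 and PSMD10 overlap LSM14B, NRDE2, MLX, HTR2B and ATG4A, and that of PSMD14 overlaps TBR1 and a pseudogene. Whether strand was used in counting is not given in the sources used here. Part of the counts of these members may therefore belong to those neighbours.

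The chaperones were lower together. PSMD5, which holds the ATPase base during assembly, was at 63.6, 63.2 and 47.2 CPM for con-2c, 24.5, 28.8 and 24.7 CPM for con-4c, 27.9, 25.8 and 32.8 CPM for si-2c, and 42.2, 56.8 and 52.6 CPM for si-4c. Con-4c and con-2c did not overlap, and the log2 fold change was -1.16 ± 0.14 (edgeR adjusted p = 4.88e-06). PSMG3, a chaperone of the alpha ring, was at 15.8, 16.1 and 17.7 CPM for con-2c, 6.75, 6.96 and 10.3 CPM for con-4c, 12.5, 11.3 and 9.72 CPM for si-2c, and 22.4, 16.7 and 20.5 CPM for si-4c. It differed by -1.05 ± 0.17 (adjusted p = 0.000123), and by -0.95 without con-4c replicate 1 and -0.97 without con-4c replicate 2, short of 2-fold. PSMG1, another alpha ring chaperone, fell by 0.90, PSMD9 by 0.60 and PSMD10 by 0.51.

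**Figure D2:**
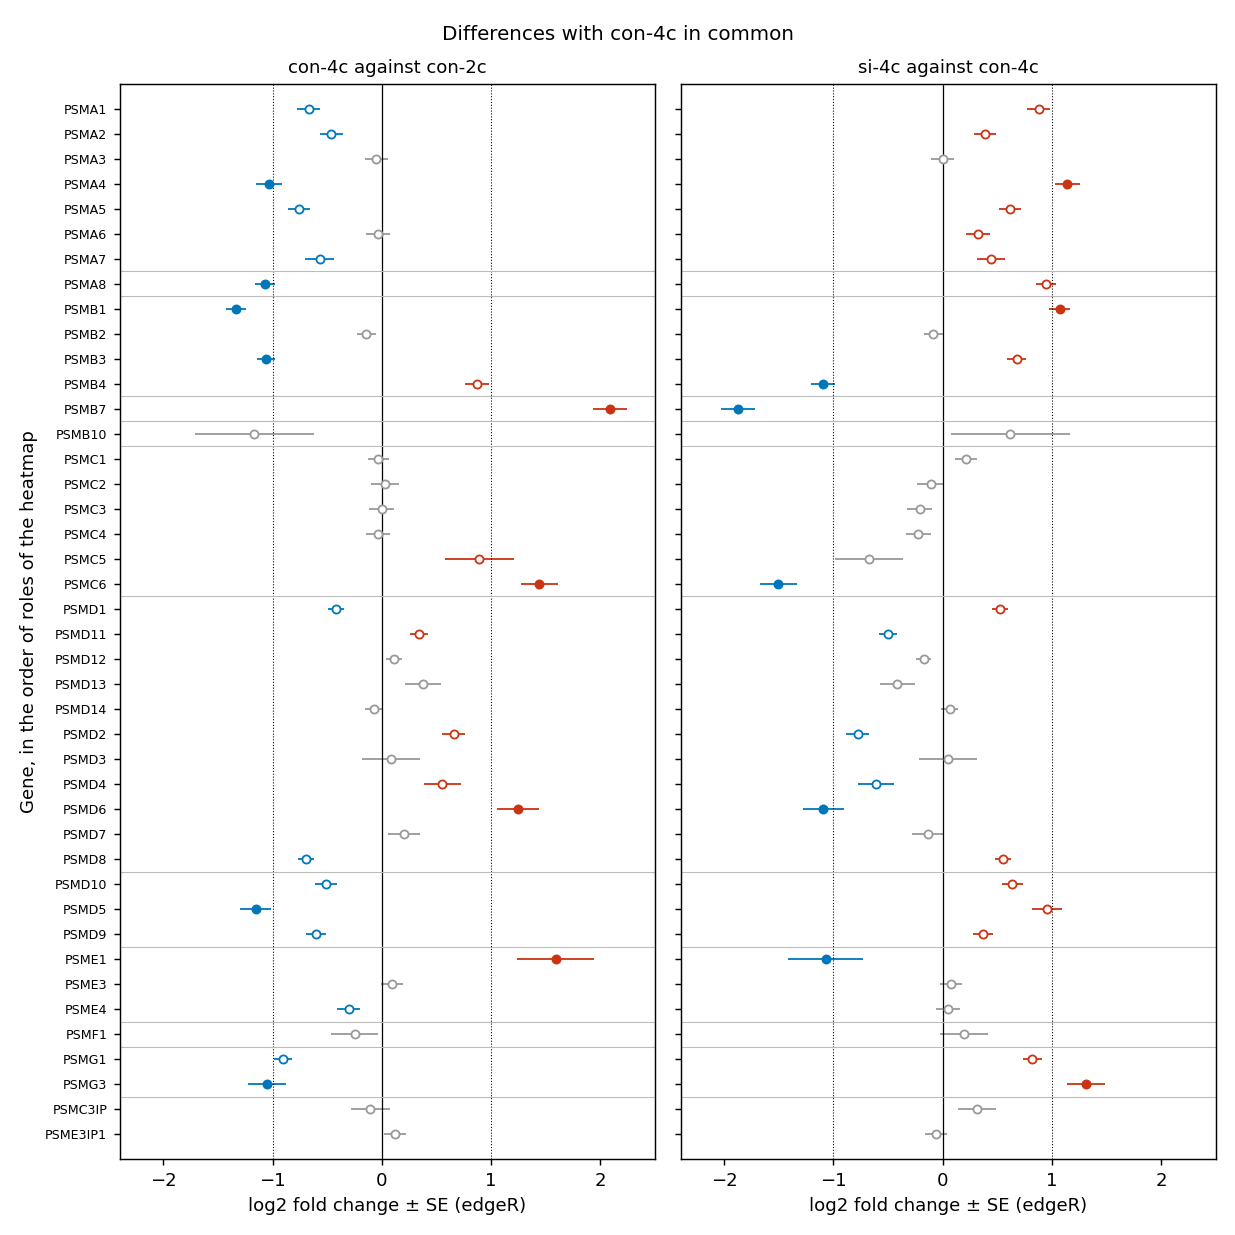
Log2 fold change ± SE (edgeR, horizontal axis) of 42 proteasome genes for con-4c against con-2c (left) and si-4c against con-4c (right), which share the con-4c libraries, with genes in rows ordered by role. Red and blue mark genes higher and lower at an adjusted p below 0.05, filled points are at least 2-fold (dotted lines), grey points did not pass, and PSME2, PSMB8 and PSMB9 are left out because they had no count in some libraries. PSMB7 lies at 2.09 on the left and -1.87 on the right, and PSMB1 at -1.34 and 1.07.

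The activators PSME1 and PSME2 form a ring that caps the core and is known for its induction by interferon in somatic cells. PSME2 had 9, 4 and 12 counts for con-2c, 119, 151 and 160 for con-4c, 75, 97 and 22 for si-2c, and 0 in every si-4c library. In CPM these were 0.286, 0.119 and 0.369 for con-2c, 3.92, 5.0 and 5.20 for con-4c, and 1.83, 2.60 and 0.472 for si-2c. The 4 groups did not overlap in any library. Con-4c exceeded con-2c by 4.18 ± 0.60 on the log2 scale (edgeR adjusted p = 5.81e-05). Against the floor of 3 counts over the si-4c group, PSME2 was at least 159-fold higher in con-4c, at least 55.2-fold higher in si-2c and at least 8.72-fold higher in con-2c. These bounds cover counting error only, since amplified reads without molecular identifiers are not independent molecules.

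PSME1 was at 1.21, 0.951 and 1.81 CPM for con-2c, 4.11, 2.82 and 5.07 CPM for con-4c, 1.15, 2.2 and 1.48 CPM for si-2c, and 2.25, 2.08 and 1.37 CPM for si-4c. Only con-4c stood above the others, by 1.59 ± 0.36 over con-2c (edgeR adjusted p = 0.00198). The pair are neighbours, PSME2 at chr7:75154570-75157871 and PSME1 at chr7:75161830-75164531 (RefSeq, Sscrofa11.1), separated by 3959 bases, and PSME1 overlaps EMC9. PSME3, the nuclear activator, differed by 0.09 ± 0.10 and did not pass, while PSME4, which is known for histone degradation in spermatids, fell by 0.30 ± 0.11 (edgeR adjusted p = 0.0382). On library totals the difference of PSME4 was -0.02. The inhibitor PSMF1 differed by -0.25 ± 0.22 and did not pass.

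The inducible catalytic subunits, which replace the constitutive ones in immune cells, had few counts. PSMB8 had 4, 12 and 0 counts for con-2c, 0, 24 and 10 for con-4c, 5, 26 and 0 for si-2c and 0 in all of si-4c. PSMB9 had 4, 28 and 0 counts for con-2c, 0, 8 and 11 for con-4c, 5, 8 and 17 for si-2c and 2, 0 and 3 for si-4c. Both genes had libraries without a count beside libraries with several in the same group, and neither passed in any comparison as fitted. PSMB8 came nearest for si-4c against con-4c (edgeR adjusted p = 0.0505), and there it was called by DESeq2 (adjusted p = 0.0195), on library totals (edgeR adjusted p = 0.0425) and with no filter on low counts (edgeR adjusted p = 0.0201). PSMB10 was at 2.35, 2.56 and 2.61 CPM for con-2c, 1.94, 0.199 and 1.20 CPM for con-4c, 1.63, 3.21 and 0.987 CPM for si-2c, and 1.80, 1.59 and 1.76 CPM for si-4c. As fitted PSMB10 passed in none, with -1.17 ± 0.54 for con-4c against con-2c (edgeR adjusted p = 0.107), but without con-4c replicate 1 it was called there (-1.84, edgeR adjusted p = 0.0321). PSMB8 (chr7:25058456-25061666) and PSMB9 (chr7:25072133-25077508) lie 10467 bases apart.

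Some leukocyte markers moved with PSME1 and PSME2 and others did not. All 8 listed markers were in the table, among them HBB, a gene of red blood cells rather than leukocytes. HBB had means of 0.253 CPM for con-4c and 0.0687 CPM for si-4c, and no count in con-2c and si-2c. Summed, the 8 were at 1.38 to 2.42 CPM for con-2c and 4.41 to 4.51 for con-4c. They were at 1.72 to 3.35 CPM for si-2c and 1.33 to 1.88 for si-4c. Of the 5 that were tested, CD14, CD68 and PTPRC were called higher for con-4c against con-2c, and lower for si-4c against con-4c. CD3E and CSF1R passed in neither, and CSF1R had its lowest mean, 0.175 CPM, in con-4c, against 0.514 CPM for con-2c and 0.327 CPM for si-4c. None of the 5 was called for si-2c against con-2c, where PSME2 was. CD68 had no count in con-2c and si-4c, and CD8A had none in con-2c, con-4c or si-4c. The part of these cells in the PSME1 and PSME2 values was not tested.

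Si-4c was compared with con-4c to ask what CCNB2 depletion changed at the title stage 4c. Most core subunits and all chaperones were higher in si-4c, and several cap subunits and both PSME1 and PSME2 were lower. Of the 12 constitutive core subunits, 8 were higher and 2 were lower (PSMB4 and PSMB7). Of the 17 cap subunits, 2 were higher (PSMD1 and PSMD8) and 5 were lower (PSMC6, PSMD2, PSMD4, PSMD6 and PSMD11), and all 5 chaperones were higher. On library totals, 5 of 12 core subunits and 4 of 5 chaperones were higher at the same threshold, 10 of 17 cap subunits were lower, and none of the members that passed turned direction. Of the oocyte markers 9 of 11 were higher in si-4c and none was lower, and of the 6 cumulus markers VCAN was higher and TNFAIP6 lower. Their part was not tested.

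In total 3 members were called higher, 6.67% against 3.12% of all genes tested, and 6 were called lower, 13.3% against 15.8%. Without the fold minimum, 16 were higher (35.6% against 15.1%) and 9 were lower (9 of 45, against 21.7% of all genes). The si-4c libraries lay wholly above con-4c for 18 members (21.2% of all genes did so) and wholly below for 12 (26.7% against 29.8%). On library totals the balance at any fold turned, to 12 higher and 17 lower, and PSMA2, PSMA6, PSMA7 and PSMD9 no longer passed. The median member differed by 0.05 on the log2 scale and the median gene by -0.11. On library totals 1 member was called higher and 8 lower, and the median gene moved by -0.26.

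The members called higher were PSMG3, PSMA4 and PSMB1. PSMG3 exceeded con-4c by 1.31 ± 0.17 (edgeR adjusted p = 1.21e-05), PSMA4 by 1.14 ± 0.12 (adjusted p = 6.78e-07) and PSMB1 by 1.07 ± 0.09 (adjusted p = 1.05e-07). For each of these genes the 3 si-4c libraries listed above lay over all 3 con-4c libraries. Without si-4c replicate 1, PSMB1 was at 0.998, just short of 2-fold. PSMD5 followed at 0.96 ± 0.14, PSMA8 at 0.95 ± 0.09, PSMA1 at 0.88 ± 0.11, PSMG1 at 0.82 ± 0.09, PSMB3 at 0.68 ± 0.08 and PSMA5 at 0.62 ± 0.10. Leaving out 1 library moved PSMD5 and PSMA8 to 1.08 and 1.03 at most.

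The members called lower were PSMB7, PSMC6, PSMB4, PSMD6, PSME1 and PSME2. PSMB7 fell by 1.87 ± 0.15 on the log2 scale (edgeR adjusted p = 5.67e-08), PSMC6 by 1.51 ± 0.17 (adjusted p = 2.13e-06) and PSMB4 by 1.09 ± 0.11 (adjusted p = 4.84e-07). PSMD6 fell by 1.09 ± 0.19 (adjusted p = 0.000213), and by 0.99 without con-4c replicate 3 and 0.96 without si-4c replicate 3. PSME1 fell by 1.07 ± 0.35 (adjusted p = 0.0226). That call did not hold without con-4c replicate 1 (adjusted p = 0.0622), con-4c replicate 3 (0.114) or si-4c replicate 3 (0.1003). PSMD2 fell by 0.78, PSMD4 by 0.61 and PSMD11 by 0.50, short of 2-fold.

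**Figure D3:**
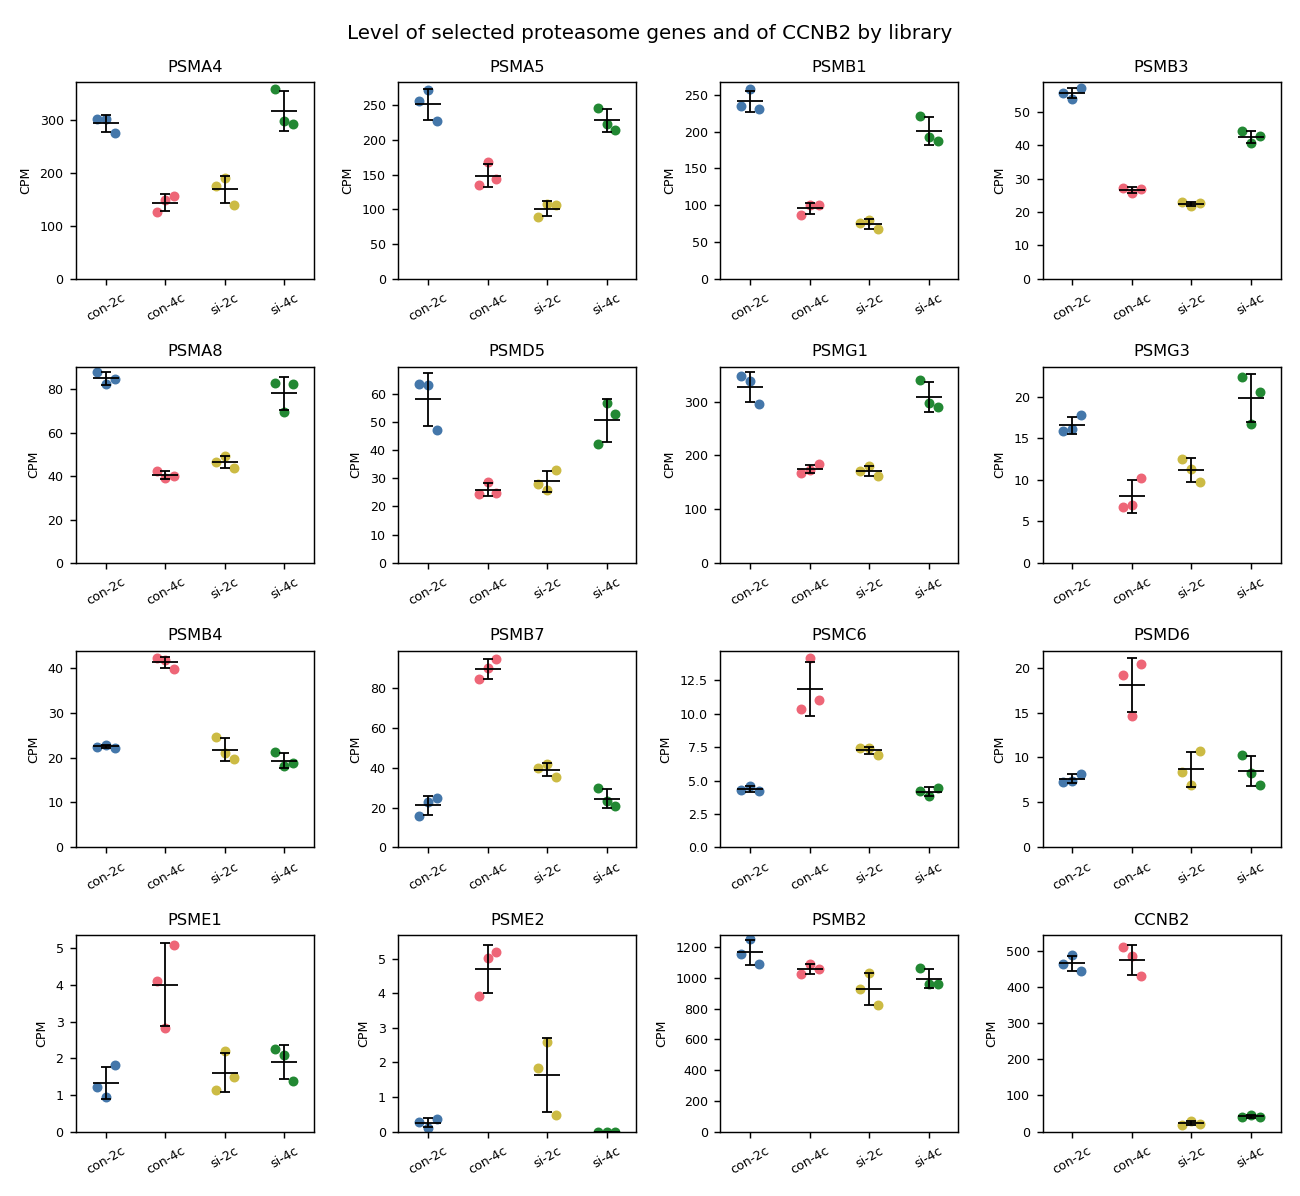
CPM (TMM-scaled, vertical axes starting at 0) of 15 proteasome genes and of CCNB2 in each library, with points for the libraries, lines for the mean of a group and bars for the SD (n = 3). In the upper panels con-2c and si-4c lie above con-4c and si-2c, PSMB4, PSMB7, PSMC6, PSMD6, PSME1 and PSME2 peak in con-4c, and CCNB2 is at 46.8 CPM or less in both si groups.

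Si-2c was compared with con-2c to ask what depletion changed at the title stage 2c. Most core subunits were lower in si-2c. Of the 12 constitutive core subunits, 9 were lower and PSMB7 was the only one higher. Of the 17 cap subunits, 4 were lower (PSMC4, PSMD1, PSMD8 and PSMD14) and 3 were higher (PSMC6, PSMD2 and PSMD11), and all 5 chaperones were lower. This count depends on scaling: on library totals 5 of 12 core subunits, 2 of 17 cap subunits and 3 of 5 chaperones were lower, 7 cap subunits were higher, and PSMB2, PSMD1, PSMD14 and PSMD10 turned direction, to between 0.03 and 0.16. Of the oocyte markers 6 of 11 were lower in si-2c and BMP15 was higher, and of the cumulus markers VCAN was lower and PTX3 higher. Their part was not tested.

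PSME2 was the only member called higher, 2.22% of the members against 10.7% of all genes, and PSMB1, PSMA5, PSMB3 and PSMD5 were called lower, 8.89% against 1.80%. At any fold, 5 members were higher, where 16.6% of all genes were, and 20 were lower (44.4% against 12.3%). The si-2c libraries lay wholly above con-2c for 7 members (15.6% against 25.2% of all genes) and wholly below for 22 (48.9% against 16.5%). At any fold, library totals gave 12 higher and 11 lower, without the lean to lower levels, and PSMA1, PSMA3, PSMA7, PSMB2, PSMD1, PSMD14, PSMD10, PSME4 and PSMG3 no longer passed. The median member differed by -0.24 on the log2 scale and the median gene by 0.12. On library totals 3 members were called higher and 1 lower, and the median gene moved up by 0.39. Under both scalings 32 of the 45 members lay below the median gene.

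PSMB1 fell by 1.70 ± 0.09 on the log2 scale, to 0.308 of its con-2c level (edgeR adjusted p = 7.26e-10). PSMA5 fell by 1.32 ± 0.10 (adjusted p = 5.72e-08) and PSMB3 by 1.31 ± 0.08 (adjusted p = 4.62e-09). The 3 si-2c libraries of each lay below all con-2c libraries. PSMD5 fell by 1.01 ± 0.14 (adjusted p = 2.96e-05). Its fold depended on the setting, and it was -0.60 on library totals, -0.99 with DESeq2, -0.94 without con-2c replicate 1 or 2, -0.98 without si-2c replicate 1 and -0.93 without si-2c replicate 2. PSMD8 fell by 0.97 ± 0.07 and PSMG1 by 0.94 ± 0.09, while PSMB7 rose by 0.89 ± 0.15 and PSMC6 by 0.73 ± 0.17. Without con-2c replicate 3, PSMB7 was at 1.02 and called. PSME2 rose by 2.64 ± 0.58 (adjusted p = 0.00312), and its lowest si-2c library, at 22 counts, was above the highest con-2c library, at 12.

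PSMC4 and PSMA3 were lowest in si-2c only. PSMC4, an ATPase, was at 28.8, 26.5 and 27.7 CPM for con-2c, 27.9, 26.4 and 26.9 CPM for con-4c, 16.3, 15.5 and 16.6 CPM for si-2c, and 26.9, 22.8 and 19.8 CPM for si-4c. The si-2c libraries lay below all others, by 0.78 ± 0.11 against con-2c (edgeR adjusted p = 6.10e-05) and by 0.74 ± 0.11 against con-4c (adjusted p = 0.000528). PSMA3 was at 228, 302 and 266 CPM for con-2c, 232, 289 and 247 CPM for con-4c, 168, 177 and 167 CPM for si-2c, and 278, 234 and 256 CPM for si-4c. It fell by 0.64 ± 0.11 against con-2c (edgeR adjusted p = 0.000197) and by 0.59 ± 0.11 against con-4c (adjusted p = 0.00191), with the other groups overlapping. On library totals PSMA3 was at -0.24 against con-2c and did not pass (edgeR adjusted p = 0.0782), while PSMC4 was at -0.38 and passed (adjusted p = 0.0227). A long non-coding RNA overlaps PSMA3 in RefSeq. PSMD14, the deubiquitinating subunit of the lid, fell by 0.36 ± 0.08 and 0.29 ± 0.08 in the same comparisons, but on library totals it was at 0.03 against con-2c and -0.17 against con-4c (edgeR adjusted p = 0.328) and passed in neither.

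Within the si groups, si-4c was compared with si-2c. In si-4c 19 members were higher at any fold (42.2% against 12.1% of all genes tested) and 5 were lower, where 16.9% of all genes were. With library totals these counts were 10 higher and 12 lower, and PSMA3, PSMA6, PSMA7, PSMC4, PSMD1, PSMD14, PSMD10, PSMD9 and PSMG3 no longer passed. At 2-fold, PSMB1 and PSMA5 were called higher, 4.44% against 1.47%, and PSME2 was called lower, 2.22% against 11.9%. All 7 alpha ring subunits were higher, between 0.41 for PSMA7 and 1.18 for PSMA5, with 4 of 7 passing on library totals and none turning direction. PSMB1 rose by 1.44 ± 0.09 (edgeR adjusted p = 5.54e-09) and PSMA5 by 1.18 ± 0.10 (adjusted p = 2.2e-07). PSMB7 fell by 0.67 ± 0.15, PSMC6 by 0.80 ± 0.17, PSMD2 by 0.50 ± 0.11 and PSMD11 by 0.48 ± 0.09. On library totals 1 member was called higher and 3 lower, and PSMD1 and PSMD14 turned direction, to -0.04 and -0.03.

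The groups were also compared across title stages, which sets each si group beside the controls of the other title stage. Whether the stage of the si libraries alone, or of the control libraries alone, was exchanged cannot be told from the labels, and the study's other assays of 4-cell embryos after CCNB2 depletion were not analysed here. If it was, these would be the comparisons at a matched stage and those of si with con libraries above would not, nor would the interaction compare like steps. For si-4c against con-2c, edgeR called none of the 45 members (1 higher and 8 lower at an unadjusted p below 0.05), where 0.0333% of all genes were called higher and 0.300% lower. At any fold 1 member passed (0.567% of all genes were lower), PSMB3, which fell by 0.39 ± 0.08 (adjusted p = 0.0386) but did not pass on library totals (adjusted p = 0.141), while PSME2 was called lower by DESeq2 (adjusted p = 0.00355), with no filter on low counts (edgeR adjusted p = 0.00247) and without si-2c replicate 3 (edgeR adjusted p = 0.0103). Libraries did not overlap for 3 members that were higher (6.67% against 6.76% of all genes) and 10 that were lower (22.2% against 7.31%). The median member differed by -0.06 and the median gene by -0.00 on the log2 scale. As fitted, PSME2 did not pass (edgeR adjusted p = 0.0586), with counts in every con-2c library and none in si-4c. PSMB1 differed by -0.26 ± 0.09, PSMA4 by 0.11 ± 0.11, PSMB7 by 0.22 ± 0.15 and PSMC6 by -0.06 ± 0.17, and these did not pass, which does not show equal levels.

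For si-2c against con-4c, 3 members were called lower (6.67% against 1.63% of all genes) and none higher (3 at an unadjusted p below 0.05, and none by DESeq2), where 0.161% of all genes were called higher. PSMB7 fell by 1.20 ± 0.15 (edgeR adjusted p = 7.28e-05), with si-2c at 35.6 to 41.9 CPM and con-4c at 84.6 to 94.5 CPM. PSMD6 fell by 1.06 ± 0.19 (adjusted p = 0.00177), and by 0.96 without con-4c replicate 3 and 0.92 without si-2c replicate 2. PSME1 fell by 1.32 ± 0.35 (adjusted p = 0.0272), a call that was lost when any 1 of 4 libraries was left out (adjusted p between 0.0824 and 0.146). PSME2 differed by -1.53 ± 0.50 without overlap of its libraries and did not pass (edgeR adjusted p = 0.0843), but it was called by DESeq2 (adjusted p = 0.0399) and with no filter on low counts (edgeR adjusted p = 0.0340). At any fold 12 members were lower (26.7% against 5.32%) and none was higher (0% against 2.22%), while library totals gave 8 lower and 3 higher, and PSMB1, PSMD13, PSMD14 and PSMD8 no longer passed. PSMB4 fell by 0.92 ± 0.11 (adjusted p = 3.25e-05), PSMC6 by 0.71 ± 0.16, PSMA5 by 0.56 ± 0.10 and PSMB1 by 0.37 ± 0.09. The median member differed by -0.17 and the median gene by -0.02.

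**Figure D4:**
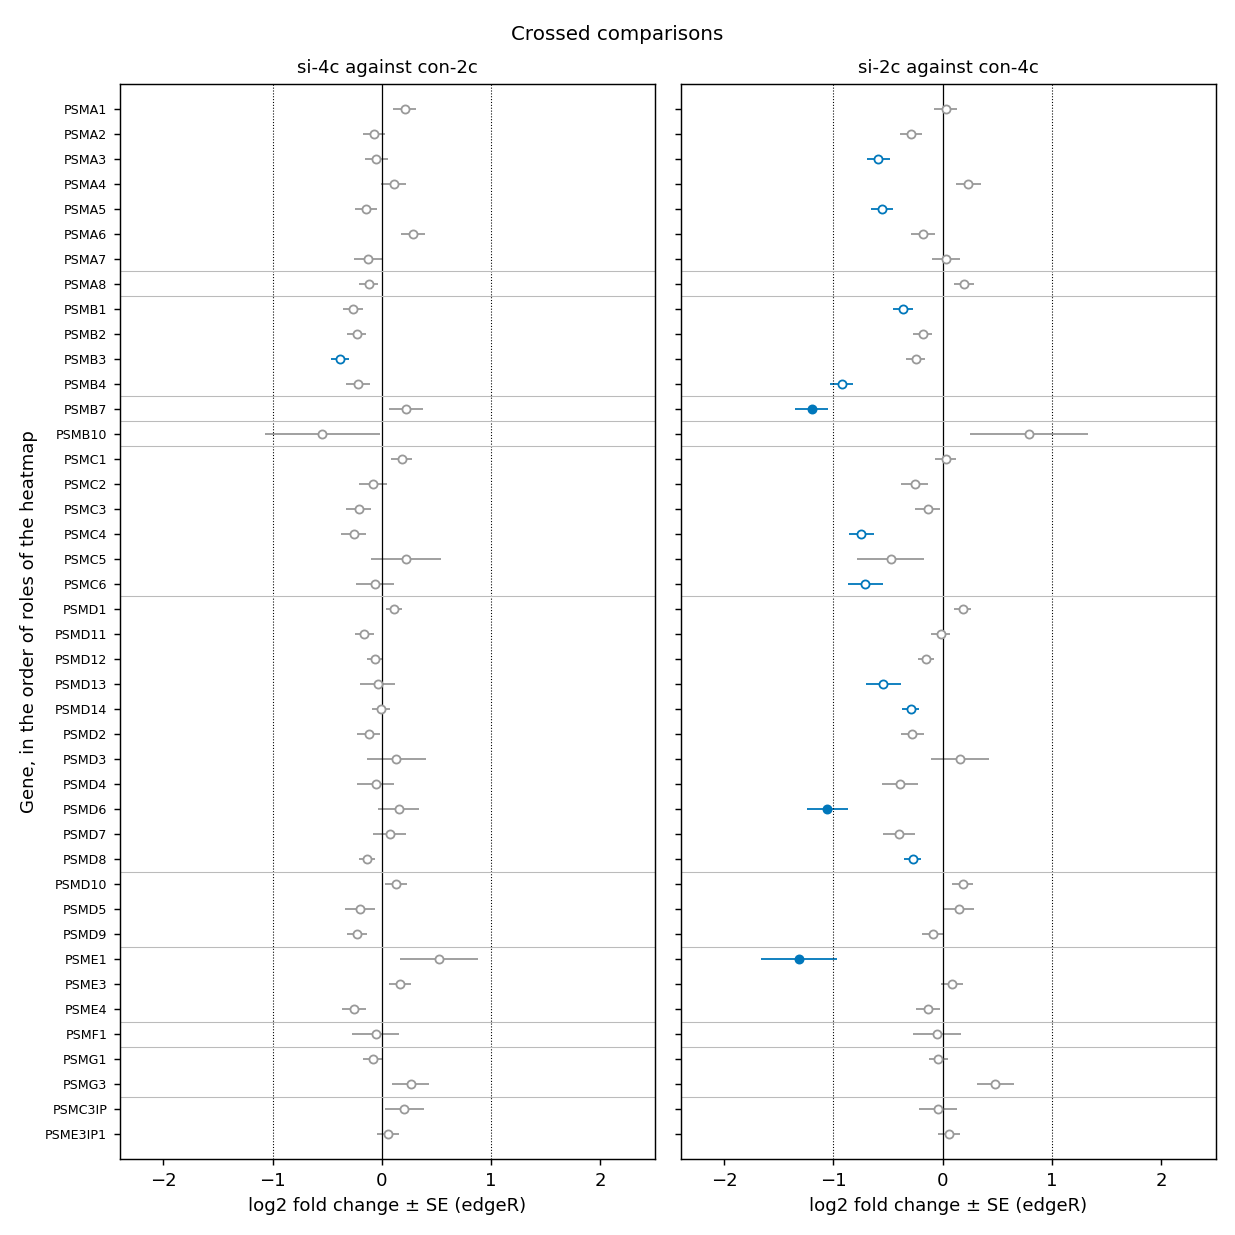
Log2 fold change ± SE (edgeR, horizontal axis) of the same 42 proteasome genes for si-4c against con-2c (left) and si-2c against con-4c (right), which share no libraries, with genes in rows and colours for genes that passed an adjusted p of 0.05 (blue lower, filled at least 2-fold, grey not passed). On the left PSMB3 at -0.39 is the only coloured point, and on the right PSMB7, PSMD6 and PSME1 are filled at -1.20, -1.06 and -1.32.

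The interaction tested whether the step from 2c to 4c differed between treatments, as the si-4c minus si-2c difference less the con-4c minus con-2c difference. It was called higher for 12 members (26.7% against 9.87% of all genes tested) and lower for 7 (15.6% against 22.5%), and at any fold for 20 higher (44.4% against 18.2%) and 9 lower, where 27.3% of all genes were. With library totals the any-fold counts were 12 higher and 20 lower, and PSMA3, PSMA6, PSMA7, PSMC4, PSMD1, PSMD14, PSMD10 and PSME4 no longer passed. All 7 alpha ring subunits and all 5 chaperones were on the higher side. PSMB1 had a difference of steps of 2.77 ± 0.13 on the log2 scale (edgeR adjusted p = 3.21e-11), made of a fall by 1.34 in controls and a rise of 1.44 in si embryos. PSMB7 had -2.77 ± 0.22 (adjusted p = 1.78e-08), from a rise of 2.09 and a fall by 0.67. PSMC6 followed with -2.24 ± 0.24 and PSMB3 with 1.99 ± 0.12. PSME1 had -1.35 ± 0.50 (adjusted p = 0.0356), lost when any 1 of 6 libraries was left out (adjusted p between 0.0679 and 0.114). The median member was at 0.43 and the median gene at -0.23, and on library totals the median gene moved by -0.65, 8 members were called higher and 11 lower, and PSMA3, PSMA6, PSMC4, PSMD14 and PSME4 turned direction.

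The level of a member and its change were related across genes. To avoid sharing libraries, level was taken from the groups outside a comparison. Members with more counts differed more towards lower values between con-4c and con-2c (Spearman's rho = -0.43 over 45 members, against -0.37 over 17995 genes) and between si-2c and con-2c (-0.45 against -0.37). Between si-4c and con-4c the sign was opposite (0.52 against 0.40). These are descriptions across genes of the same libraries, which are not independent replicates, and the relation was of like size among all genes.

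The 2 genes that match by name only did not pass in any comparison. PSMC3IP was between 6.63 and 10.6 CPM and PSME3IP1 between 67.9 and 92.8 CPM over the 12 libraries. Of the subunits, PSMC1, PSMC2, PSMC3, PSMD3, PSMD7, PSMD12, PSME3 and PSMF1 passed in none of the 7 comparisons, and PSMC1, for example, was between 39.8 and 56.6 CPM throughout.

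Genes that work with the proteasome were read from lists outside the name rule. Among 15 tested partners (shuttles, deubiquitinases and assembly factors), none was called between con-4c and con-2c, while 4 were higher and 4 lower at any fold, where 20.7% and 15.1% of all genes were. POMP, which matures the core, was at 43.9, 54.1 and 54.1 CPM for con-2c, 77.7, 95.3 and 85.0 CPM for con-4c, 45.1, 52.0 and 42.4 CPM for si-2c, and 50.8, 43.6 and 45.0 CPM for si-4c. Like PSMB4, it was high in con-4c only, by 0.76 ± 0.11 over con-2c (edgeR adjusted p = 4.10e-05) and 0.89 ± 0.11 over si-4c (adjusted p = 8.12e-06). The deubiquitinase UCHL5 fell by 0.43 and ZFAND5, an activator under stress, by 0.73 between con-4c and con-2c. USP14, another deubiquitinase that works at the cap, rose by 0.42.

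Of 10 tested genes of the NFE2L1 pathway, which sets proteasome gene transcription in other cells, and of the p97 complex, which extracts ubiquitinated proteins, 2 were called higher in con-4c than in con-2c and 1 lower, where 14.4% and 3.25% of all genes were. NFE2L1 itself was between 7.27 and 10.8 CPM in all 12 libraries and did not pass (-0.23 ± 0.16). VCP, the p97 ATPase, was at 2.07, 1.49 and 3.23 CPM for con-2c, 38.8, 38.8 and 39.3 CPM for con-4c, 21.0, 17.4 and 21.6 CPM for si-2c, and 2.25, 2.40 and 2.66 CPM for si-4c. Con-4c exceeded con-2c by 4.11 ± 0.20 on the log2 scale (edgeR adjusted p = 9.43e-11), a wider gap than that of any proteasome member other than PSME2. Its partner UFD1 rose by 1.32 ± 0.14, and NFE2L2, a related stress factor, fell by 1.41 ± 0.08. NGLY1, which processes NFE2L1, fell by 0.83 ± 0.09. In si-4c against con-4c these 4 genes differed by -4.0, -1.35, 1.38 and 0.83.

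Ubiquitin genes were also read. UBB, which encodes ubiquitin as a chain of repeats, fell by 0.39 ± 0.14 (edgeR adjusted p = 0.0351) between con-4c and con-2c, and by 1.12 ± 0.14 (adjusted p = 1.09e-05) between si-2c and con-2c. RPS27A, which encodes ubiquitin fused to a ribosomal protein, was at 5.82, 3.45 and 4.00 CPM for con-2c, 24.7, 34.6 and 32.4 CPM for con-4c, 13.4, 15.5 and 11.9 CPM for si-2c, and 4.02, 3.85 and 5.08 CPM for si-4c. It rose by 2.79 ± 0.20 for con-4c (edgeR adjusted p = 1.10e-08) and by 1.62 ± 0.20 for si-2c (adjusted p = 8.68e-06) over con-2c. The activating enzymes UBA1 and UBA6 did not pass in either. Genes outside the name rule were not recomputed on library totals. That scaling moved the median gene by 0.27 for con-4c and 0.39 for si-2c, each against con-2c.

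**Figure D5:**
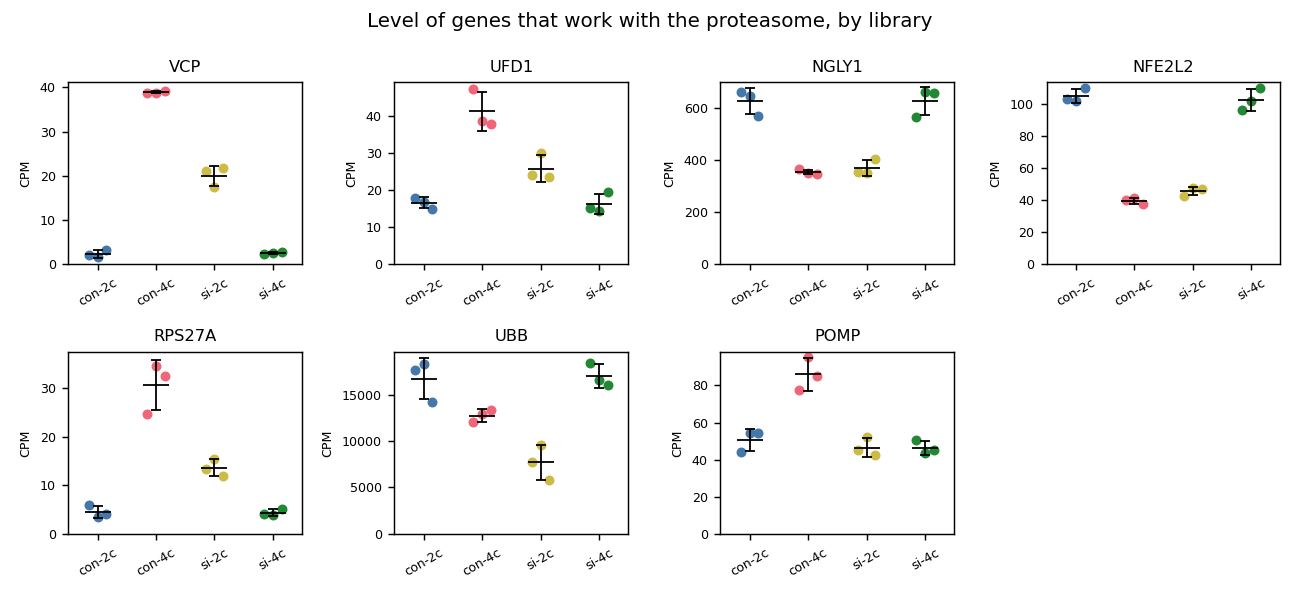
CPM (TMM-scaled, vertical axes starting at 0) of 7 genes that work with the proteasome in each library, with points for the libraries, lines for the mean of a group and bars for the SD (n = 3). VCP, UFD1 and RPS27A are high in con-4c, intermediate in si-2c and low in con-2c and si-4c, NGLY1 and NFE2L2 are high in con-2c and si-4c and low in con-4c and si-2c, and POMP is high in con-4c only.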

How the data were processed

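RNA was copied by SMART-seq from pools of embryos and sequenced in pairs. The authors deposited a table of whole-number read counts for each Ensembl gene, without normalization. The submitters' processing notes name cutadapt 1.9, HISAT2 2.2.1, StringTie 2.1.6, DESeq2, edgeR and the build Sscrofa11.1; the counting program, annotation release, strand and treatment of reads that match several genes are not given in the sources used here. Symbols came from the table, and 45 of the 46 members matched a RefSeq gene of Sscrofa11.1 by symbol, from which coordinates were taken.

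Tests used edgeR 4.0.16 under R 4.3.3. Low counts were removed by filterByExpr, library sizes took TMM factors of 0.852 to 1.21, and counts were fitted with 4 group means over the 12 libraries (quasi-likelihood test, biological coefficient of variation 27.3%). Benjamini-Hochberg adjustment covered all 17995 tested genes, and calls needed an adjusted p below 0.05 and a log2 fold change of at least 1 in size. Fold changes are fitted values. The code was tested on simulated data. Spread between replicates exceeded sampling noise, with chi-square values of 7.27 to 38.7 for each degree of freedom, so each counted once. Depth was 27785233 to 39510908 counts, and the 3 libraries of a group set the precision.

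Groups came from the titles. The members and gene lists were chosen with earlier results of these data known. Text gives library values for members called in a main comparison, the 3 with most counts, those with the lowest p across stages and the inducible subunits; related genes were named where called in a main comparison, at most 6 a list. PSMC4 and PSMA3 in every library, and POMP, UCHL5, ZFAND5, USP14, NFE2L1, NGLY1, UBA1 and UBA6, were added after their values were seen. An item withheld from this text is not reported here. Alternatives were DESeq2 1.42.0, other scalings, filters, fold minimum, a replicate block, only the groups compared, and leaving out each library.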

Additional observations from a re-analysis of the deposited data

Results flagged for a closer look

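The step from 2c to 4c differed between control and si embryos for 19 of the 45 members tested, by edgeR's interaction test with a difference of at least 2-fold. On the log2 scale the si step exceeded the control step by 2.77 for PSMB1, 1.99 for PSMB3, 1.96 for PSMD5, 1.94 for PSMA4, 1.94 for PSMA5, 1.88 for PSMG3, 1.82 for PSMA8, 1.76 for PSMG1, 1.52 for PSMD8, 1.52 for PSMA1, 1.13 for PSMA2 and 1.06 for PSMD9. These are subunits of the core, 1 subunit of the lid and 4 chaperones. In the other direction the difference was -2.77 for PSMB7, -2.24 for PSMC6, -1.35 for PSME1, -1.28 for PSMD6, -1.16 for PSMD2 and -1.04 for PSMB4. For PSME2 the fitted difference was -12.99, a value set by the 0 counts of all si-4c libraries and no bound on its size.

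Over all genes tested the interaction was called higher for 9.87% and lower for 22.5%. The stage labels of titles and tissue are opposite in every library, and exchanging them in all 12 libraries turns the sign of every value above without changing its size. An exchange in the si or the control libraries alone would change these values. No sample was tested as an outlier, since each group had 3 libraries.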

How the results depend on the processing

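Each result for a member that passed was recomputed under the alternatives, and those for genes outside the name rule were not. Of 2659 values for named members, 2563 kept their direction and their status as called at 2-fold or not. Of the others, 57 lost a call, 28 gained one and 11 turned direction. All 142 results passed the adjusted p as reported, and 153 of the 2659 values missed it, of which 40 were on library totals (of 142) and 85 with 1 library left out (of 1704). All 11 turned on library totals in place of TMM: for si-2c against con-2c PSMB2 0.0704, PSMD1 0.16, PSMD14 0.0345 and PSMD10 0.0723, for si-4c against si-2c PSMD1 -0.0385 and PSMD14 -0.0298, and for the interaction PSMA3 -0.0164, PSMA6 -0.12, PSMC4 -0.10, PSMD14 -0.23 and PSME4 -0.17. That scaling moved the median of all genes by 0.39, -0.38 and -0.65 in these comparisons.

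Counts of members called moved as follows. On library totals, con-4c against con-2c had 1 lower, si-2c against con-2c 3 higher and 1 lower, si-4c against con-4c 1 higher, si-4c against si-2c 1 higher and 3 lower, and the interaction 11 lower. With at least 10 CPM in at least 3 libraries required, con-4c against con-2c had 3 higher and 2 lower, si-2c against con-2c 0 higher, and si-4c against si-2c 0 lower, where PSME1 and PSME2 were no longer tested. With no minimum fold, con-4c against con-2c had 10 higher and 16 lower, si-2c against con-2c 5 higher and 20 lower, si-4c against con-4c 16 higher, si-4c against si-2c 19 and 5, 1 lower was left for si-4c against con-2c, 12 lower for si-2c against con-4c and 20 higher for the interaction. DESeq2 and the fit with no filter on low counts each gave 2 lower for si-4c against si-2c and 1 lower for si-4c against con-2c, the added members being PSMB8 and PSME2; the cause was not tested.

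Leaving out each library in turn gave, as higher and lower, 5 to 6 and 5 to 7 for con-4c against con-2c, 1 to 2 and 3 to 5 for si-2c over con-2c, 3 to 4 and 4 to 7 for si-4c against con-4c, 2 to 3 and 1 to 1 for si-4c against si-2c, 0 to 0 and 0 to 1 for si-4c against con-2c, 0 to 0 and 1 to 3 for si-2c against con-4c, and 12 to 13 and 6 to 9 for the interaction. The count rose to 2 higher for si-2c against con-2c without con-2c replicate 3 and to 1 lower for si-4c against con-2c without si-2c replicate 3, and fell to 1 lower for si-2c against con-4c without con-4c replicate 3.

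Same-numbered libraries did not deviate together (correlations -0.05 to 0.03 over 18 pairs, of which 8 were the best match), so the numbers did not pair the libraries. With a replicate block, 2 members in place of 3 were called lower for si-2c against con-4c, PSME1 missed the threshold there (-1.30, adjusted p = 0.0553) and in the interaction (-1.34, adjusted p = 0.0540), PSMC5 was called in the interaction (-1.22, adjusted p = 0.0246), the other named results kept their status at 2-fold, and 6 of 142 missed the adjusted p.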
